A study of Mus musculus with 4 samples.

Results

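Phosphorylated STAT3 sites inside introns were examined in hematopoietic stem and progenitor cells, away from promoters and from annotated repeats. STAT3 is a latent transcription factor that cytokine receptors and tyrosine kinases activate. Once phosphorylated on a tyrosine near its end, the form called pSTAT3-Y705, it enters the nucleus and binds promoters and distal elements. Introns often hold enhancers, which can act on the gene around them or on another gene nearby. A position in an intron therefore does not by itself name the gene that a site acts on.

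A peak was taken when its annotation began with an intron, its distance to the nearest transcription start site (TSS) was over 1000 bp and its annotation named no repeat element. Only chromosomes 1 to 19 and X were used, without 9 gene names that were left out, among them Sfi1 and the ribosomal RNA unit Rn45s. Each peak was counted once per library. By this rule 213 of 3218 distinct peaks were intronic and nonrepeat (6.62%): 117 of 1757 in CML-TKI, 65 of 715 in CML and 31 of 746 in WT.

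Chromatin came from LSK cells (Lin-Sca1+cKit+), in which the bone marrow's stem cells and early progenitors are found, sorted from C57BL/6 mice. CML-TKI cells were from leukemic mice given imatinib, an inhibitor of the BCR-ABL kinase, on alternate days, for which the labels state both 200 mg/kg over 4 weeks and 400 mg/kg over 30 days. CML cells were from untreated mice of the same chronic myeloid leukemia model, in which a BCR-ABL transgene is driven through SCL-tTA in stem and progenitor cells once tetracycline is withdrawn. WT cells were from untreated wild-type mice. An input sample precipitated with IgG was not analysed here. Ages, and whether animals were pooled, are not given in the sources used here.

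With 1 library in each group there were no replicates, and the groups were compared without a test. The table holds no read counts, heights or enrichment values, so the depth is unknown. A missing peak therefore cannot be told apart from one under the detection limit. Shares carry exact Clopper-Pearson 95% intervals, which cover counting error over peaks only and count peaks that overlap at a site as if they were independent. Positions are as listed and were taken as mm9. Whether every entry is of that build is not known. Entries of different builds at the same place would not overlap, and the part of this in the sharing was not tested.

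The 213 peaks merged into 137 separate sites, where peaks that share at least 1 bp are 1 site. CML-TKI held 96 of these sites, CML 63 and WT 26. The ratio of CML-TKI to CML was 1.80 by peaks and 1.52 by sites, and that of CML-TKI to WT was 3.77 by peaks and 3.69 by sites. Among all peaks on the same chromosomes and outside the same 9 genes, nonrepeat introns made up 10.3% (8.63 to 12.3) in CML-TKI, against 12.2% (9.58 to 15.3) in CML and 9.23% (6.35 to 12.8) in WT. These intervals overlapped.

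Each WT site was also a CML-TKI site. Some of these matches rest on CML-TKI entries with rounded ends. Among peaks with full ends only, 6.90% of WT peaks (0.846 to 22.8) overlapped no other library. By library, 54 sites (39.4%, 31.2 to 48.1) were in CML-TKI only and 41 (29.9%, 22.4 to 38.3) in CML only. In both CML-TKI and WT, but not in CML, lay 20 sites (14.6%, 9.15 to 21.6), and in both CML-TKI and CML, but not in WT, lay 16 (11.7%, 6.82 to 18.3). A further 6 sites (4.38%, 1.62 to 9.29) were in all 3 libraries. These patterns count nonrepeat intronic peaks alone. They were not counted over sites of all peaks, so they cannot be read as a trait of introns. Overlap shares over all peaks are given below, by peaks. At 1 site in CML-TKI only, in Gm21119 (chr8:19953219-19953485), peaks of CML and WT that the rule left out overlapped it. No site was in WT only or in CML and WT without CML-TKI, for each of which 0 of 137 has an upper limit of 2.66%. The paper reports far more sites than the deposited list holds, and unique ones in control LSK cells among them. These absences therefore hold for the listed intronic peaks only.

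**Figure D1:**
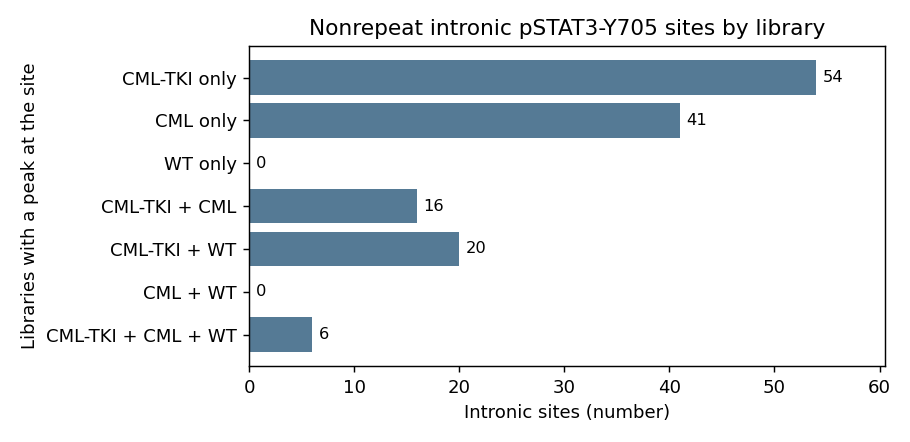
Number of nonrepeat intronic sites (horizontal axis) for each combination of libraries with a peak there. Sites in CML-TKI only (54) and in CML only (41) were the most frequent, and no site was in WT only or in CML and WT alone.

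The pairs of libraries differed in how far their intronic peaks overlapped. Of 31 WT peaks, 31 overlapped a CML-TKI peak of any kind (100%, 88.8 to 100), where the share over all peaks outside the 9 genes was 96.7%. With CML, 11 of the 31 WT peaks overlapped (35.5%, 19.2 to 54.6), against 47.3% over all peaks. Of 65 CML peaks, 24 overlapped CML-TKI (36.9%, 25.3 to 49.8; all peaks 43.9%) and 6 overlapped WT (9.23%, 3.46 to 19.02; all peaks 20.5%). Of 117 CML-TKI peaks, 36 overlapped CML (30.8%, 22.6 to 40.0; all peaks 33.2%) and 32 overlapped WT (27.4%, 19.5 to 36.4; all peaks 36.3%).

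Overlap with CML-TKI was thus high for WT and low for CML in introns as it was over all peaks, and only CML against WT had an interval that lay below the share of all peaks. By sites, 26 of 26 WT sites were in CML-TKI (86.8 to 100) and 6 of 26 in CML (23.1%, 8.97 to 43.6). Of 63 CML sites, 22 were in CML-TKI (34.9%, 23.3 to 48.0).

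The share of intronic peaks found in a single library was near that of all peaks. In CML-TKI 60 of 117 peaks overlapped no other library (51.3%, 41.9 to 60.6; all peaks 48.3%), in CML 41 of 65 (63.1%, 50.2 to 74.7; all peaks 55.9%) and in WT 0 of 31 (0 to 11.2; all peaks 2.98%). In each library the interval included the value of all peaks. Intronic peaks in repeats lay lower in CML, with 14 of 43 in no other library (32.6%, 19.1 to 48.5), an interval apart from that of the nonrepeat intronic peaks. The nonrepeat intergenic peaks gave 51.3% in CML-TKI (44.6 to 58.0) and 59.1% in CML (49.6 to 68.2), close to the intronic values. Peaks within 1 kb of a TSS gave 56.6% in CML-TKI (50.2 to 62.8) and 71.9% in CML (63.0 to 79.7).

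**Figure D2:**
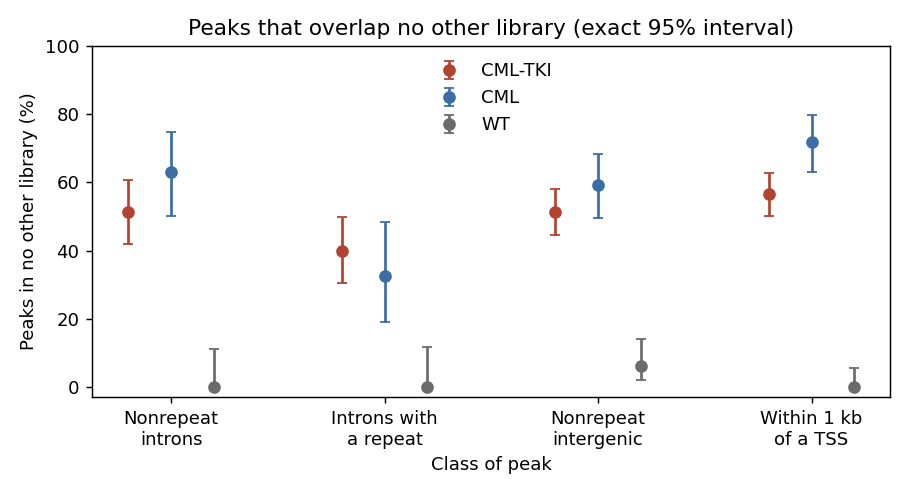
Percent of peaks that overlapped no other library (vertical axis) in 4 classes of peak, for CML-TKI, CML and WT; bars are exact 95% intervals over peaks. In nonrepeat introns the values were 51.3% in CML-TKI, against 63.1% in CML and 0% in WT.

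Peaks of a shared site often had the same start and end in each library. Of the 42 shared sites, 34 had full ends in every library that listed them, and 30 of these had at least 1 peak with identical start and end in all of those libraries. Of 29 WT peaks with full ends, 19 had the same ends as a CML-TKI peak, and of 64 CML peaks 18 did. Whether the libraries were called apart at such sites cannot be told from the table. The paper's methods include a HOMER merge of peaks across the samples to find their overlap. Whether that step gave the identical ends was not tested.

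The table also repeated peaks unequally. The 117 CML-TKI peaks came from 246 entries, the 65 CML peaks from 116 and the 31 WT peaks from 52. CML-TKI peaks at sites of that library only were listed a mean of 2.70 times, and 34 of these 61 were listed 3 or 4 times. The 56 CML-TKI peaks at shared sites were listed a mean of 1.45 times, and 36 of them once. In CML the means were 1.80 at CML-only sites and 1.75 at shared sites, and in WT the mean was 1.68. The part of this repetition in the other counts was not tested beyond counting each peak once.

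**Figure D3:**
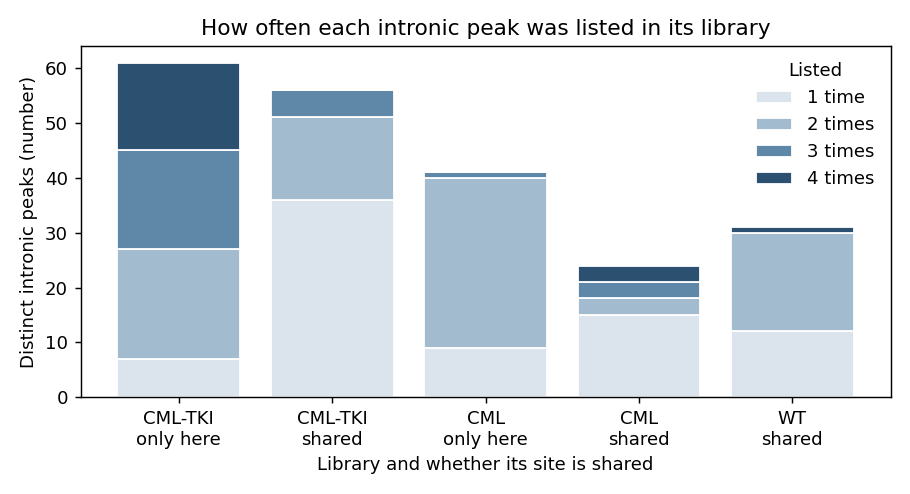
Number of distinct intronic peaks (vertical axis) by how many times the table listed each (shading), for CML-TKI, CML and WT and by whether the site was shared with another library. Of the CML-TKI peaks at sites of that library only, 34 of 61 were listed 3 or 4 times, against 5 of 56 at shared sites.

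The 6 sites of all 3 libraries lay in introns of Vmp1, Selp, Rere, Iqgap1, Pisd-ps2 and Kctd16. The site in intron 7 of 11 of Vmp1 (chr11:86437927-86438069, 142 bp) had identical ends in CML-TKI, CML and WT. Vmp1 encodes a membrane protein of autophagy, and its 3′ end lies next to Mir21a, the gene of miR-21, a microRNA that is abundant in many tumors and that STAT3 is known to induce. Mir21a was the nearest TSS, and the peak lay 40338 bp upstream of it.

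Mature sequences are shown for the microRNAs with the nearest TSS to an intronic site, as these are the transcripts that the annotation ties to the peaks. Of 6 such genes, 3 had mature sequences in RefSeq (GRCm38.p6). They are written 5′ to 3′, with the seed (bases 2 to 8) in capitals. The 5 mature sequences had 5 different seeds.
mmu-miR-21a-5p: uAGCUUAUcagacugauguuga
mmu-miR-21a-3p: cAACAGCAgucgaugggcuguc
mmu-miR-7681-5p: aUCCUGUCcuugcccucucu
mmu-miR-7681-3p: aGAAAGGGcacugacaggauag
mmu-miR-6419: cAGCAGCAaucugacacaugga

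The sequences are matched to sites by the nearest TSS alone and are not sequences of the peaks. The miR-21a pair goes with the site of all 3 libraries. The miR-7681 pair goes with a site in CML-TKI only, 1945 bp downstream of the Mir7681 TSS. That site lay in intron 21 of 28 of Hecw2, a ubiquitin ligase gene. The miR-6419 sequence goes with a site in CML only, 139768 bp upstream of the Mir6419 TSS. That site lay in intron 4 of 6 of Nebl, which encodes an actin-binding protein. The other microRNA genes named were Mir598 and Mir8097 in CML only and Mir6979 in CML-TKI and WT.

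The Selp site (chr1:166065522-166065794, 272 bp) lay in intron 8 of 15 of Selp, which encodes P-selectin, an adhesion molecule of platelets and endothelium. Its nearest TSS was that of F5, coagulation factor V, 16332 bp away. The ends were the same in CML and WT, and the CML-TKI entry, with rounded ends, had the same distance. The Rere site (chr4:149940308-149940493) lay in intron 11 of 22 of Rere, a nuclear receptor corepressor gene, and the nearest TSS was that of the sugar transporter gene Slc45a1, 85885 bp away. It was 181 bp wide in CML and 185 bp in WT, and rounded in CML-TKI.

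Iqgap1 encodes a scaffold protein that binds actin, calmodulin and kinases of the MAPK pathway. Its site lay in intron 2 of 37, 23875 bp from the TSS for the peak common to all libraries. CML-TKI listed peaks of 188 and 150 bp there, CML 1 peak of 150 bp, and WT 3 peaks of 292, 273 and 150 bp. The widest peaks at this site were thus in WT, and the 150 bp peak (chr7:87924267-87924417) was common to all libraries.

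Pisd-ps2 is a pseudogene of phosphatidylserine decarboxylase, a mitochondrial enzyme, and belongs to a family with near-identical copies. The site in its intron 1 of 7 had peaks of 584, 469 and 166 bp in CML-TKI, 166 bp in CML and 584 bp in WT. The 584 bp peak (chr17:3081564-3082148) was the same in CML-TKI and WT. The 166 bp peak was the same in CML-TKI and CML. Reads from the other copies cannot be told apart there.

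Kctd16 encodes an auxiliary subunit of GABA-B receptors. Its only intron held peaks of 187 and 167 bp in CML-TKI, 187 bp in CML and 195, 187, 186 and 153 bp in WT, between 49804 and 49815 bp downstream of the TSS. The 187 bp peak (chr18:40467736-40467923) was identical in all libraries. At Iqgap1 and Kctd16, WT therefore listed the most peaks, although it had the fewest sites. Those peaks overlap within a single site at each gene, so their number is no measure of binding.

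The 20 sites of CML-TKI and WT included Runx1, Etv6 and Zbtb16, which encode hematopoietic transcription factors. RUNX1 and ETV6 are needed by blood stem cells, and PLZF, the product of Zbtb16, acts in progenitors and innate-like lymphocytes. The Runx1 site lay in intron 2 of 6, with peaks of 214 and 157 bp in CML-TKI and 157 bp in WT, 18331 bp upstream of the nearest Runx1 TSS for the peak common to both (chr16:92715827-92715984). The Etv6 site (chr6:134136361-134136529, 168 bp) lay in intron 2 of 7, 150720 bp from the TSS. CML-TKI listed it once with rounded ends, and WT listed it 4 times, the most of any WT intronic peak.

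The Zbtb16 site (chr9:48622752-48622914, 162 bp) lay in intron 2 of 6 with the same ends in CML-TKI and WT. Runx2, a RUNX factor of bone, had a site in CML-TKI only (chr17:44791525-44791690, 165 bp, 81518 bp from the TSS). Of 46 genes on the list of hematopoietic transcription factors and stem cell genes, 4 thus held an intronic peak in CML-TKI (8.70%), with 0 in CML and 3 in WT (6.52%). The WT members are all CML-TKI members, so the pair of counts is not independent. For comparison, all protein-coding genes gave 0.402% for CML-TKI, 0.315% for CML and 0.123% for WT. At so low a share, an absence of CML peaks among 46 genes says little. This list was chosen with earlier results of these peaks known, so its higher shares are no evidence of enrichment. The shares were not adjusted for gene length.

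Listed genes were few in each library. Over 8 lists with 487 genes, 10 were the nearest or host gene of an intronic peak in CML-TKI (2.05%), with 6 in CML (1.23%) and 5 in WT (1.03%). Of all 21887 protein-coding genes the shares were 0.402% in CML-TKI, against 0.315% in CML and 0.123% in WT. The lists were drawn up with earlier results of these peaks known, so the higher shares are no evidence about the lists. Genes around the peaks were long: the 119 protein-coding host genes had a median locus of 83.0 kb (quartiles 35.3 and 206), against 17.2 kb (5.67 and 44.3) over all protein-coding genes.

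No gene of the JAK-STAT and STAT3 target list (48 genes) had such a peak in any library. Over all protein-coding genes the share was at most 0.402%, so an absence among 48 genes says little. Mir21a, the nearest TSS to the Vmp1 site, is not on this list. The list of cyclic nucleotide signaling (37 genes) had 2 in CML-TKI, with 1 in CML and 2 in WT. Adcy2 (chr13:69067476-69067636, intron 2 of 24), an adenylate cyclase gene, and Rapgef4 (chr2:72059523-72059713, intron 16 of 29), which encodes the cAMP-activated exchange factor EPAC2, had identical ends in CML-TKI and WT, at 160 and 190 bp. Adcy9, another adenylate cyclase gene, had a site in its last intron in CML only (chr16:4289825-4289990).

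The hedgehog, Wnt and TGF-beta list (50 genes) had Hhat, the acyltransferase of hedgehog proteins, in CML-TKI only. The myeloid and lymphoid list (51 genes) had a site in CML-TKI only at Cx3cr1, whose product is the receptor of fractalkine, 9312 bp from the TSS in its single intron. The metabolic list (71 genes) had Immp2l, a mitochondrial inner membrane peptidase, in CML only, as the host of the site that lay farthest from a TSS among those of CML alone (596057 bp upstream of Lrrn3).

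Neuronal genes (111 on the list) had 1 member in CML-TKI, with 3 in CML and 0 in WT. Nlgn1, a synaptic adhesion molecule, had the same 313 bp peak in CML-TKI and CML (chr3:25439670-25439983), 612403 bp from the TSS. Cntnap2, a neurexin family gene (chr6:45140608-45140741, 133 bp), and Ctnnd2, which encodes delta-catenin (chr15:30540475-30540639, 164 bp), were in CML only.

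The genes in the following account were chosen after their peaks were seen, and are grouped by what they are known to do. Beside the RUNX, ETS and PLZF genes, CML-TKI and WT shared sites at further regulators of transcription and chromatin. These were Arid3a, a DNA-binding protein of B cells and stem cells (1205 bp from the TSS), Rorb, an orphan nuclear receptor (5460 bp), and Baz2a, a subunit of a complex that silences ribosomal DNA. The Baz2a peak, 3997 bp from the TSS, was annotated as a CpG island and had rounded ends in both libraries.

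Kinase and cytoskeleton genes made up several more of these sites. Mknk1 encodes the kinase MNK1, which phosphorylates the cap-binding protein eIF4E, and was listed with rounded ends 8443 bp from its TSS in CML-TKI and WT. Mapk4, an atypical MAP kinase gene, hosted a 224 bp peak with the same ends in both. Diaph1, a formin that builds actin filaments, was the only gene with more than 1 WT site: it held peaks of 189 bp in intron 25 and 175 bp in intron 16 of 26, each identical in CML-TKI and WT. Myo1f, a myosin of neutrophils and other immune cells (215 bp, intron 1 of 27), and Rab27a, a GTPase of secretory granules (201 bp, last intron), were alike in having the same ends in both libraries.

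The rest of this group held the mitochondrial superoxide dismutase Sod2 (193 bp, 2336 bp from the TSS), the recombination gene Rad51b (144 bp) and the ESCRT-I gene Mvb12b (151 bp, nearest Nron). Rad51b lay 315624 bp from its TSS, the farthest WT site. Tmem229b, 1700112H15Rik and Sp110 completed it, of which the Sp110 site was 266 bp in CML-TKI and 357 bp in WT.

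The 16 sites of CML-TKI and CML lay at genes of varied function. Pdgfrb, a receptor tyrosine kinase that imatinib also inhibits, had the same 155 bp peak in intron 1 of 22 in both (chr18:61207335-61207490, 2608 bp from the TSS). Trim24, a chromatin reader and coregulator of nuclear receptors, had peaks of 240, 201 and 168 bp in CML-TKI and 168 bp in CML in intron 1 of 18. Tex14, a gene of germ cell bridges, had 3 sites in intron 2 in CML-TKI, of which 1 was also in CML. Sugct, which encodes a glutarate CoA-transferase, had a pair of sites in intron 12 of 13 in both libraries, 718110 and 665994 bp from the TSS and the farthest of all.

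The host genes Apool, a component of the mitochondrial contact site complex, and Mid1, a microtubule-associated ubiquitin ligase, carried the X-linked sites of both libraries. At Apool the peaks were 426, 372 and 343 bp in CML-TKI, the 343 bp ends taken from the CML entry, and 343 bp in CML. At Mid1 the widest peak was 353 bp in CML-TKI and 241 bp in CML. Zfp608, Erich1, Otulinl and Gm11346 were also shared by these libraries, each with at least 1 peak of identical ends.

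Sites in CML-TKI only included genes of cell cycle, transcription and adhesion. Cdk6, a cyclin-dependent kinase of blood progenitors, hosted a 169 bp peak in intron 4 of 6 whose nearest TSS was Fam133b, 46096 bp away. Hmga2, an architectural chromatin protein of fetal stem cells, hosted a 154 bp peak in its last intron. Mafg, a small MAF factor of megakaryocytes (202 bp, 2926 bp from the TSS), Foxp2 (164 bp), Ldb2 (188 bp) and the basal factor subunit Gtf2a1 (173 bp, 1129 bp, CpG island) had their own TSS nearest.

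Arrdc3, an arrestin-domain gene, had the widest intronic peak of any library, 774 bp at chr13:81024891-81025665, in a CpG island of intron 1 and 2595 bp from the TSS. A second peak of 328 bp overlapped it. The chemokine gene Ccl9 had the fifth widest in CML-TKI (373 bp, 1300 bp from the TSS, listed 4 times). Lats2, a Hippo pathway kinase (163 bp), Lrp1, an endocytic receptor (207 bp at the widest), Gulp1, an adaptor of engulfment (210 bp), and Emilin2, an extracellular matrix protein (224 bp), were further CML-TKI sites. Itga8, Ntn4 and Col25a1, genes of an integrin, a netrin and a collagen, were hosts of sites whose nearest TSS was another gene. Over all 54 sites in CML-TKI only, the distance to the TSS ran between 1129 and 216507 bp (median 18766) and the width of the widest peak between 129 and 774 bp.

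Sites in CML only included adaptors and surface receptors of blood cells. Gab2, an adaptor that BCR-ABL signaling uses, hosted a 152 bp peak in intron 1 of 9 (chr7:104359769-104359921), with Usp35 as the nearest TSS 114629 bp away. Dok1, which encodes a docking protein that restrains tyrosine kinase signaling, was the nearest TSS to a 247 bp peak in M1ap, 28376 bp away. Ptpra, a receptor tyrosine phosphatase (174 bp), Cd84, a SLAM family receptor (151 bp), Clec4b2, a C-type lectin (137 bp), and Tap2, a peptide transporter of antigen presentation (167 bp), had their own TSS nearest.

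Genes of DNA repair and chromatin were not confined to CML, as Rad51b and Baz2a in CML-TKI and WT and Hmga2 in CML-TKI show. Those of repair in CML only were Fancc of the Fanconi anemia pathway (215 bp) and Spidr of homologous recombination (147 bp). Those of chromatin in CML only were the remodeler gene Chd2 (181 bp) and Morf4l1 (137 bp), a chromodomain protein. Genes of lipid handling in CML only were Lipa, lysosomal acid lipase (130 bp), and the oxysterol-binding protein gene Osbpl8 (133 bp). Those of nucleotide handling were the guanine deaminase Gda (133 bp) and the phosphodiesterase subunit Pde6b (159 bp). Ywhaz, a 14-3-3 protein gene, had a 189 bp CpG island peak in intron 1, upstream of the nearest TSS by 1667 bp. Over all 41 sites in CML only, the distance ran between 1034 and 596057 bp (median 20184) and the width between 129 and 287 bp. None of these CML sites overlapped a CML-TKI or WT peak.

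Several sites lay in clustered gene families, where reads of near-identical copies can be exchanged. A zinc-finger gene cluster on chromosome 4 (chr4:145270175-146856944) held 7 of the 137 sites, 6 of them in CML-TKI, with 4 in CML and 0 in WT. Its genes are named Gm13242, Gm13251, Gm13152 and Gm13154, with Zfp980, Zfp992 and Zfp982 as hosts. Zfp982 alone hosted 4 sites, the most of any gene. Sp100-related genes on chromosome 1 (chr1:85087492-87522203 as listed) held 6 sites, 6 of them in CML-TKI, with 0 in CML and 1 in WT. That span is no real interval if these entries are of more than 1 build, which was not tested. Together with Pisd-ps2, Gm21119 and Gm10471 these families made up 17 of the 137 sites (12.4%), 10 of them in CML-TKI only and 2 in CML only. Without them the share in no other library was 51.0% in CML-TKI and 66.1% in CML.

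Most genes had a single site. The 137 sites named 125 nearest genes, of which Tex14 and Sp110 had 3 sites and Mroh2a, Sugct, Mir6979, C130026I21Rik, Gm13152, Gm13154, Gm13251 and Gm21119 had 2. The 126 host genes included Sp140, which held 2 sites near Sp110 in CML-TKI.

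The nearest gene was often not the gene around the peak. At 40 of 137 sites (29.2%, 21.7 to 37.6) the host differed from the gene with the nearest TSS. By library this held for 33 of 117 peaks in CML-TKI (28.2%, 20.3 to 37.3), 19 of 65 in CML (29.2%, 18.6 to 41.8) and 9 of 31 in WT (29.0%, 14.2 to 48.0). The nearest genes in such cases included noncoding ones, such as Nron, a repressor of NFAT, at Mvb12b and Peg13, an imprinted transcript, at Trappc9. Names by nearest TSS thus left out Cdk6, Gab2, Selp, Vmp1, Rapgef4 and Adcy9.

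Distances to the nearest TSS were broad, and their quartiles overlapped. The median was 18347 bp in CML-TKI (quartiles 5491 and 40338), 20296 bp in CML (6249 and 60678) and 23875 bp in WT (6999 and 49814). Within 5 kb lay 24 of 117 CML-TKI peaks (13.6 to 29.0%), 13 of 65 CML peaks (11.1 to 31.8%) and 6 of 31 WT peaks (7.45 to 37.5%). Between 5 and 50 kb lay 60.7%, 53.8% and 61.3% in the same order, and between 50 and 100 kb 10.3%, 10.8% and 12.9%. Beyond 100 kb lay 8.55% of CML-TKI peaks (4.17 to 15.2), 15.4% of CML peaks (7.63 to 26.5) and 6.45% of WT peaks (0.791 to 21.4).

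The peaks nearest to a TSS were Gtf2a1 in CML-TKI (1129 bp), Arid3a in CML-TKI and WT (1205 bp) and Morf4l1 in CML (1034 bp), then Larp1 in CML (1210 bp). Just below the limit of 1000 bp lay Slc17a4 (945 bp) and Hnrnph1 (897 bp) in CML and Mroh2a (842 bp) in CML-TKI and CML. There were 24 nonrepeat intronic peaks below the limit in CML-TKI, against 17 in CML and 5 in WT.

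**Figure D4:**
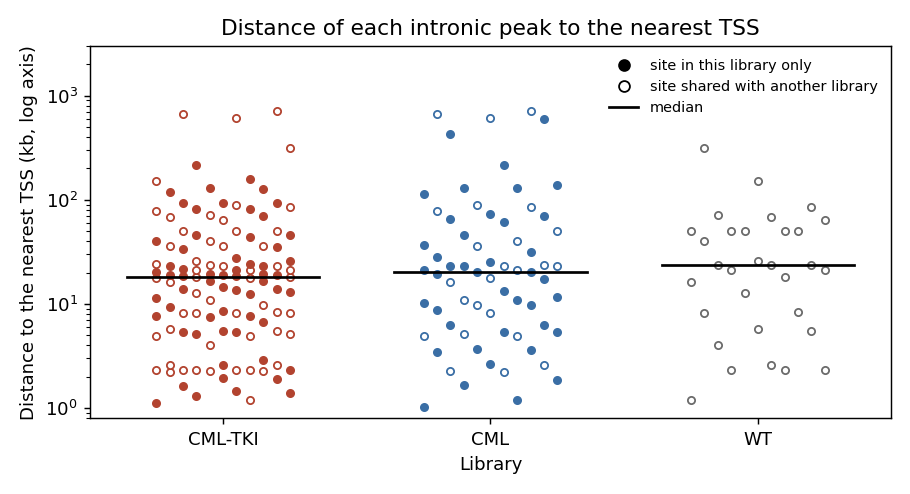
Distance of each nonrepeat intronic peak to the nearest TSS in kb (vertical log axis) in CML-TKI, CML and WT; filled points are sites of 1 library, open points shared sites, and lines medians. The medians of 18347 bp in CML-TKI, 20296 bp in CML and 23875 bp in WT lay close together, and the 31 WT points are all shared.

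First introns held 47 of 137 sites (34.3%, 26.4 to 42.9). By library these were 38 of 117 peaks in CML-TKI (32.5%, 24.1 to 41.8), 27 of 65 in CML (41.5%, 29.4 to 54.4) and 9 of 31 in WT (29.0%, 14.2 to 48.0). The host transcripts had a median of 9 introns, over a range of 1 to 88. The share of intron sequence that lies in first introns was not computed, so the 34.3% is no evidence of an excess there. The last intron held 10.3% of peaks in CML-TKI, against 10.8% in CML and 16.1% in WT. By pattern, first-intron sites were 17 of 54 in CML-TKI only, 17 of 41 in CML only, 7 of 16 in CML-TKI and CML, and 4 of 20 in CML-TKI and WT (5.73 to 43.7%). The intervals of all these shares overlapped.

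Intronic peaks were narrow. With full ends, the median width was 188 bp in CML-TKI (quartiles 162 and 222, n = 108 peaks), 174 bp in CML (147 and 211, n = 64) and 186 bp in WT (157 and 215, n = 29). Over all peaks outside the 9 genes the medians were 195 bp in CML-TKI, 177 bp in CML and 234 bp in WT. The WT median in nonrepeat introns thus lay below that of all WT peaks, and below that of nonrepeat intergenic WT peaks, which was 237 bp. Only 2 CML-TKI peaks, at Arrdc3 and Pisd-ps2, and 1 WT peak, at Pisd-ps2, were 500 bp or wider. Sites in CML only had a median of 159 bp, those in CML-TKI only 183 bp and those of CML-TKI and CML 231 bp, with the widest peak of each site taken. Sites of CML-TKI and WT had a median of 182 bp and those of all 3 libraries 234 bp. Sites with more listed peaks offer more to take the widest from, so these medians are not fully comparable.

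**Figure D5:**
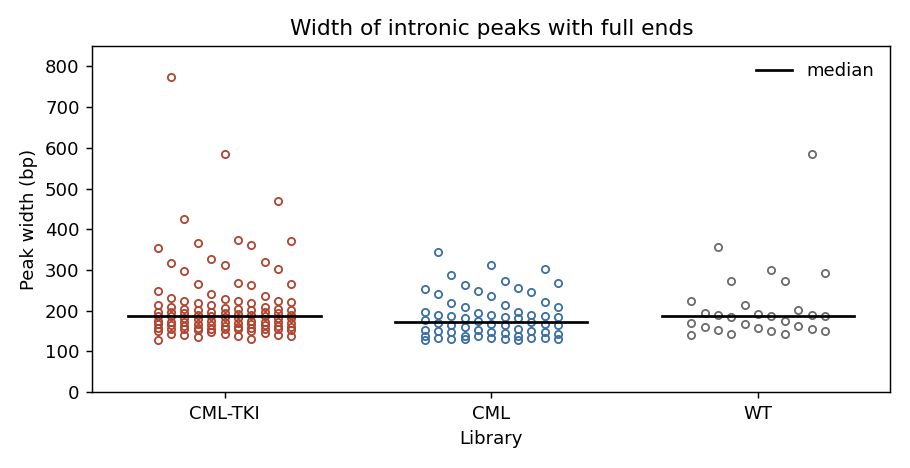
Width in bp (vertical axis) of each nonrepeat intronic peak with full ends in CML-TKI, CML and WT; lines are medians. The medians were 188 bp in CML-TKI, 174 bp in CML and 186 bp in WT, and the widest were 774 bp at Arrdc3 in CML-TKI, 343 bp at Satl1 in CML and 584 bp at Pisd-ps2 in WT.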

How the data were processed

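LSK cells were profiled by pSTAT3-Y705 ChIP-seq. By the study's methods, the authors removed duplicates and adapters, aligned reads with bwa mem and called peaks with MACS2, HOMER, Genrich and SICER2. They merged the peaks and annotated them with HOMER. Overlap between samples was also found with a HOMER merge. Partek 8.0 is named in the submitters' processing notes. Per the file headers, the deposited table lists positions, annotation and distance to the TSS, with no score. Both mm9 and mm10 are named in those notes, and mm10 in the methods. Peak ends on 6 chromosomes pass the GRCm38 lengths, and 12 of 190 intronic peaks place their TSS within 100 bp of GRCm38, so positions were taken as mm9 and no peak sequence was read.

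Each chromosome, start and end was counted once per library. Of 6024 entries, 10.8% had both ends rounded to 1 Mb. These were matched by RefSeq accession and distance to a full entry of the same library, otherwise of another library (7 intronic peaks), otherwise compared by distance with a width of 200 bp (5 intronic peaks). Overlap meant 1 bp, and width is end minus start. Host genes came from the intron's RefSeq accession: 124 of 126 matched the GRCm38 RefSeq gene table and 2 GENCODE.

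Members, gene lists and settings were chosen with earlier results of these data known. Named genes were the sites of all libraries, list members, the 5 widest peaks and the 3 nearest and 3 farthest per library, and genes with several sites. The other genes named were chosen after their peaks were seen. Results at 2 genes are not reported here. The overlap steps were tested on simulated data, in which each rounded entry had a full entry in its own library. Matching to another library and the width of 200 bp were not tested this way. Python 3.11.15, numpy 2.4.6, scipy 1.17.1 and matplotlib 3.10.9 were used.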

Additional observations from a re-analysis of the deposited data

How the results depend on the processing

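No paired analysis was possible because there was a single library per group, and no replicate could be left out. The shares in no other library, the overlaps between libraries, the median widths and distances and the first-intron shares stayed within their 95% intervals under every alternative run for them. The numbers of peaks moved by over 1.5 times under 3 settings. For CML-TKI, CML and WT they were 246, 116 and 52 with every entry counted, 225, 108 and 61 with repeats kept, and 41, 18 and 9 for peaks with full ends of at least 200 bp. CML-TKI had the most and WT the fewest in each. With repeats kept, listed genes numbered 17 in CML-TKI, with 11 in CML and 9 in WT, and with nearest genes only CML had 3. Leaving out multi-copy families, overlap with intronic peaks only and genes by nearest or host name alone were chosen after seeing the data. Depth is unknown, so differences in list length cannot be told apart from differences in depth.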
